A study of Drosophila melanogaster with 2 samples.

Results

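The genes described here encode the machinery that fills synaptic vesicles with transmitter, docks and fuses them at the presynaptic membrane, and takes the membrane up again. The 32 genes were chosen by function, from a list of names, and are 32 of 13945 protein-coding genes on the major chromosomes of Drosophila melanogaster. Binding of CLAMP (encoded by Clamp, CG1832), a zinc-finger protein that recognises GA repeats, was read at each of them. The libraries were 2 biological replicates, numbered 4 and 2, of ChIP-seq with an anti-GFP antibody on whole embryos aged 0 to 24 h, both sexes pooled. All embryos came from 1 transgenic line that stably makes CLAMP with GFP at its C-terminus; no source used here names the promoter that drives the fusion. There was 1 group and no second condition, so no comparison between conditions and no p-value is given.

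Transmitter release rests on a small set of conserved parts. The SNARE proteins Syx1A and Snap25 on the plasma membrane and nSyb on the vesicle pull the membranes together, synaptotagmins sense calcium, and an active zone scaffold holds vesicles near calcium channels. After fusion, clathrin adaptors, dynamin and lipid phosphatases recover the membrane. Many of these genes are known for their expression in differentiated neurons, which are a part of the cells of a whole embryo, while endocytosis genes such as shi also act in other cells. The lists hold no expression values, so the expression of these genes was not measured. In such a mixture strong binding in few cells and weak binding in many cannot be told apart.

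CLAMP had a peak of the optimal set at 9 of the 32 genes. A gene was counted when a summit lay inside it or within 1 kb of a transcription start site (TSS), and the optimal set is the list of 3077 peaks that the authors derived from both replicates. The share was 28.1%, against 13.3% of the 13913 other protein-coding genes. Averaged over 4 length classes, weighted by how many of the 32 genes fall in each, the share of other genes was 29.9%. The 9 genes were thus close to the share of other genes of similar length. The genes were Syx1A, nSyb and cpx of the fusion machinery, Sytbeta and Rph of the calcium sensors and Rab effectors, the scaffold gene syd-1, the endocytosis genes lap and Synj, and the glutamate transporter gene VGlut. None of the vesicle protein genes Rab3, Syn and Csp had one. All but Sytbeta had the summit within 1 kb of a TSS. The other 23 genes, among them Snap25, Syt1, brp, unc-13, shi and ChAT, had no optimal peak.

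The DNA under these peaks is shown because CLAMP is known for binding GA repeats, and release genes differed in whether such a repeat lay there. Capitals mark every uninterrupted alternation of G and A, or of C and T on the other strand, of 8 bp or more; all sequences are the forward strand of dm6, from RefSeq. At Syx1A, nSyb and lap the repeat lay in the 5' UTR, and 30 bases around it are given.
Syx1A (3R:24105410-24105439): tatttgttcttTCTCTCTCcttttcgcttg
nSyb (3L:1637076-1637105): gccgctTCTCTCTCTCTCTCTCTgtttctc
lap (3R:7187261-7187290): tgtgtgtgtgTCTCTCTCTCcCTCTCTCTg
The run at nSyb was 17 bp long, and a further run of 13 bp began in the last 4 bases of the window, which are left in lower case, and ran on beyond it. At lap a run of 10 bp was followed by another after a single C.

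The peaks at VGlut, Rph, Sytbeta and cpx had no such run within 100 bp of the summit, and 101 bases centred on the summit are given for each.
VGlut (2L:2400116-2400216): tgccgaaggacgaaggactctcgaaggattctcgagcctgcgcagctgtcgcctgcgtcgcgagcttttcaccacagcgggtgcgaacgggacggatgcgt
Rph (X:10758457-10758557): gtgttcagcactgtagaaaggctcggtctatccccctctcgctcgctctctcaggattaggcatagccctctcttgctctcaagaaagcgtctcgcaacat
Sytbeta (3L:15031918-15032018): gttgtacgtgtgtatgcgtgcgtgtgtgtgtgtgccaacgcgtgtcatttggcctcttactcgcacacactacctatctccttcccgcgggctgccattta
cpx (3R:4291542-4291642): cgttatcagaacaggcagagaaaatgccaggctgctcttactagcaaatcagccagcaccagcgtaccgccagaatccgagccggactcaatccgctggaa
The longest run at Rph was 7 bp, just short of the minimum, within a longer stretch of broken CT repeats. It was 5 bp at VGlut and cpx and 4 bp at Sytbeta.

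Several release genes carried longer GA runs that held no optimal peak. The run of Snap25 was among the longest at any of the 32 genes, and the nearest optimal summit lay 614308 bp from it. At Rim the run lay 164 bp upstream of the TSS, and at Syt1 3 runs lay 826 to 2042 bp from a TSS. The run of lap is shown because the strongest region of replicate 2 at that gene lay on it.
Snap25 (3L:24109566-24109622): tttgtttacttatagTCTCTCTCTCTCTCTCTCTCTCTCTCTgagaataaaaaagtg
Rim (3R:17916717-17916767): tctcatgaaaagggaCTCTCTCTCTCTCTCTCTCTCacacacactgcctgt
Syt1 (2L:2797562-2797611): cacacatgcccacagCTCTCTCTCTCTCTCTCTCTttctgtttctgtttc
Syt1 (2L:2798926-2798974): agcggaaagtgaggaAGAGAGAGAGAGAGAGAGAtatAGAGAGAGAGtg
Syt1 (2L:2799130-2799177): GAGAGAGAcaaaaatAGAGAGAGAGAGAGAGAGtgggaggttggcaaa
lap (3R:7188149-7188194): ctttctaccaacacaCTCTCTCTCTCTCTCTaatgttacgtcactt
These runs were 27 bp at Snap25, 21 bp at Rim, 20, 19 and 18 bp at Syt1, and 16 bp at lap.

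Among the SNAREs and fusion factors 3 of 8 genes had an optimal peak. Syx1A (FBgn0013343, 3R:24101600-24105763), which encodes the plasma membrane SNARE syntaxin, had the strongest peak of all release genes, with a signal value of 878 and rank 477 of 3077. The signal is the value that the authors' processing gave each region, with no unit stated, and it is used here to describe and rank regions within 1 list. The summit at 3R:24105480 lay in the 5' UTR, 283 bp from the TSS, and inside the overlapping gene eIF4EHP as well. Replicate 4 had no region at Syx1A, and replicate 2 had a region of rank 400 (signal 299), 22 bp from the optimal summit. The strongest release-gene peak was therefore listed as a region in 1 of the 2 replicates. Whether replicate 4 held signal there that was not listed cannot be told from its list, and its reads were not examined.

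The peak of nSyb (FBgn0013342, 3L:1630348-1637752), the vesicle SNARE synaptobrevin, showed the opposite pattern. Its summit at 3L:1637043 in the 5' UTR, 569 bp from a TSS, had a signal of 167 and rank 2244. Replicate 4 had a region 1 bp away with rank 1572 (signal 155), and replicate 2 listed no region at the gene at all. The peak of cpx (FBgn0041605, 3R:4280221-4304604), which encodes complexin, a protein that clamps and assists fusion, lay in an intron of the annotated gene, 146 bp upstream of one of its 8 TSSs, with a signal of 150 and rank 2474. It ranked 1780 in replicate 4 (signal 132) and 21291 in replicate 2 (signal 17.9), far down a list of 30000 regions that contains background besides peaks.

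No optimal peak was found at Snap25, Rop, unc-13, comt or Caps. Rop encodes the Munc18 homologue that holds syntaxin, unc-13 a priming factor, comt the NSF ATPase that takes spent SNARE complexes apart, and Caps (Cadps in the annotation) a factor for dense-core vesicle release. Rop came nearest: its strongest region in the list called on both replicates pooled had a signal of 110 in a coding exon, rank 3704. The lowest signal of the optimal set was 123. Snap25 is by far the longest of the genes at 225 kb, and its strongest regions ranked 8543 in replicate 4 and, at another place, also 8543 in replicate 2.

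The calcium sensors had 2 genes with a peak among 6. Sytbeta (FBgn0261090, 3L:15014695-15064977), a synaptotagmin, had an intron summit at 3L:15031968, 2228 bp from a TSS, with a signal of 127 and rank 2955. In replicate 2 it ranked 1659 (signal 94.3), and no region of replicate 4 lay within 200 bp. Rph (FBgn0030230, X:10749077-10757666), the rabphilin that binds Rab GTPases on vesicles, had its summit 841 bp upstream of the TSS, outside any gene, with a signal of 128 and rank 2937. It ranked 4778 in replicate 4 (signal 76.0) and 2506 in replicate 2 (signal 58.6). Syt1, the main calcium sensor of fast release, had regions of rank 6325 in replicate 4 and rank 4631 in replicate 2, and the region of replicate 2 lay on the GA run of 19 bp shown above. Syt4, Syt7 and Sytalpha had none above rank 5162 in either replicate.

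Of the 4 scaffold genes only syd-1 had an optimal peak. Its product (the gene is RhoGAP100F in the annotation; FBgn0039883, 3R:31812609-31846570) takes part in assembling active zones. Overlapping peaks had summits at 3R:31812661 (signal 197, rank 1972) and 3R:31812863 (signal 164, rank 2288), both in the 5' UTR, 52 and 212 bp from a TSS. The same region of replicate 4, of rank 1696 (signal 141), lay within 200 bp of both, while replicate 2 had a region at each, of rank 2569 (signal 57.0) and 3884 (signal 36.3). It was the single release gene with a region among the 3077 strongest of each replicate. The summits were also 365 and 567 bp from the TSS of a neighbour, FeCH.

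The scaffold genes brp, Rim and Liprin-alpha had regions below the optimal set. At brp, which encodes the large filament protein of the active zone, the strongest region of replicate 2 (rank 2601, signal 56.0, in an intron) lay within 200 bp of GA runs of 13 and 12 bp. Replicate 4 had no region there, and its strongest at brp ranked 5205 (signal 73.7). Liprin-alpha had the reverse, a coding-exon region of rank 2291 (signal 105) in replicate 4 and, at best, an intron region of rank 13632 (signal 20.9) in replicate 2. These were the 2 genes with a region among the 3077 strongest of 1 replicate and no optimal peak. At Rim the ranks were 6075 in replicate 4 and 7690 in replicate 2.

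The vesicle protein genes had no optimal peak. The strongest region of Csp, a chaperone of vesicle proteins, ranked 4407 in replicate 4 (signal 78.1, in a coding exon) and 19548 in replicate 2 (signal 18.5). Rab3, the GTPase of synaptic vesicles, had a 5' UTR region 103 bp from the TSS with rank 4419 in replicate 4 (signal 78.1), and its best rank in replicate 2 was 14296 (signal 20.6). The synapsin gene Syn ranked 17606 in replicate 4 and 10547 in replicate 2. Csp and Rab3 thus ranked higher in replicate 4, and Syn in replicate 2.

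Endocytosis genes had a peak in 2 of 6 cases. lap (FBgn0086372, 3R:7186994-7200941) encodes the clathrin adaptor AP180, and its summit at 3R:7187315 in the 5' UTR, 321 bp from the TSS, had the second highest signal of the release genes, 297, at rank 1413. Replicate 2 had this region at rank 1407 (signal 113) and a stronger one in the first intron, at rank 695 (signal 205) on the 16 bp GA run; the second is not in the optimal set. Replicate 4 had neither. Synj (FBgn0034691), the phosphatase synaptojanin, had its summit 4 bp from a TSS with a signal of 216 and rank 1831, and a GA run of 9 bp nearby. It ranked 1439 in replicate 4 (signal 174) and 3419 in replicate 2 (signal 40.8). The dynamin gene shi had no region in replicate 4 and 5 in replicate 2, the strongest of rank 7713. EndoA, AP-2alpha and Dap160, which encode endophilin, a clathrin adaptor subunit and intersectin, had none above rank 5583.

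In the group for transmitter synthesis and loading 1 of 5 genes had a peak, and it was the weakest. VGlut (FBgn0031424, 2L:2400295-2410662), the vesicular glutamate transporter, had its summit 129 bp upstream of a TSS with a signal of 124 and rank 3044. Its ranks were 2308 in replicate 4 (signal 105) and 14421 in replicate 2 (signal 20.5). Vmat, the monoamine transporter, lay just outside the set, with a pooled signal of 115 at rank 3444, 43 bp from a TSS. VAChT and ChAT share the cholinergic locus and start at the same annotated position, so regions of the shorter VAChT lie inside ChAT as well; neither had an optimal peak, and the strongest region of the locus had rank 5839 in replicate 4 and 5615 in replicate 2. VGAT had no region in replicate 2.

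**Figure D1:**
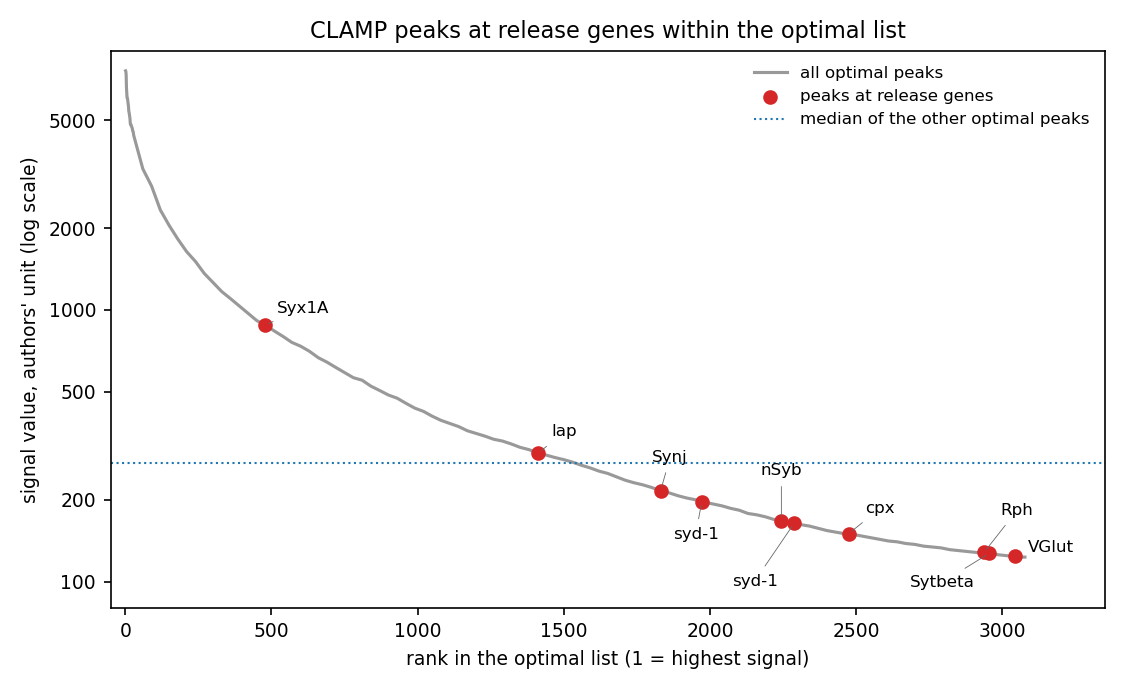
Signal value (log scale) against rank in the optimal list of 3077 peaks; the red points are the 10 peaks at release genes, the grey line all optimal peaks and the dotted line the median of the other optimal peaks (274). Syx1A (878) and lap (297) lie above that median, and the other 8 peaks lie between 124 and 216.

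The peaks of release genes were mostly in the weaker part of the list. The 10 peaks had a median signal of 165, with a range of 124 to 878, and the other 3067 optimal peaks a median of 274, with a range of 123 to 7591. Taking the strongest peak of each gene, the median was 167 over the 9 release genes and 339 over the 1849 other protein-coding genes with a peak. Of the 10 peaks 2 were among the 1538 strongest. The values are given as a description, with no test.

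**Figure D2:**
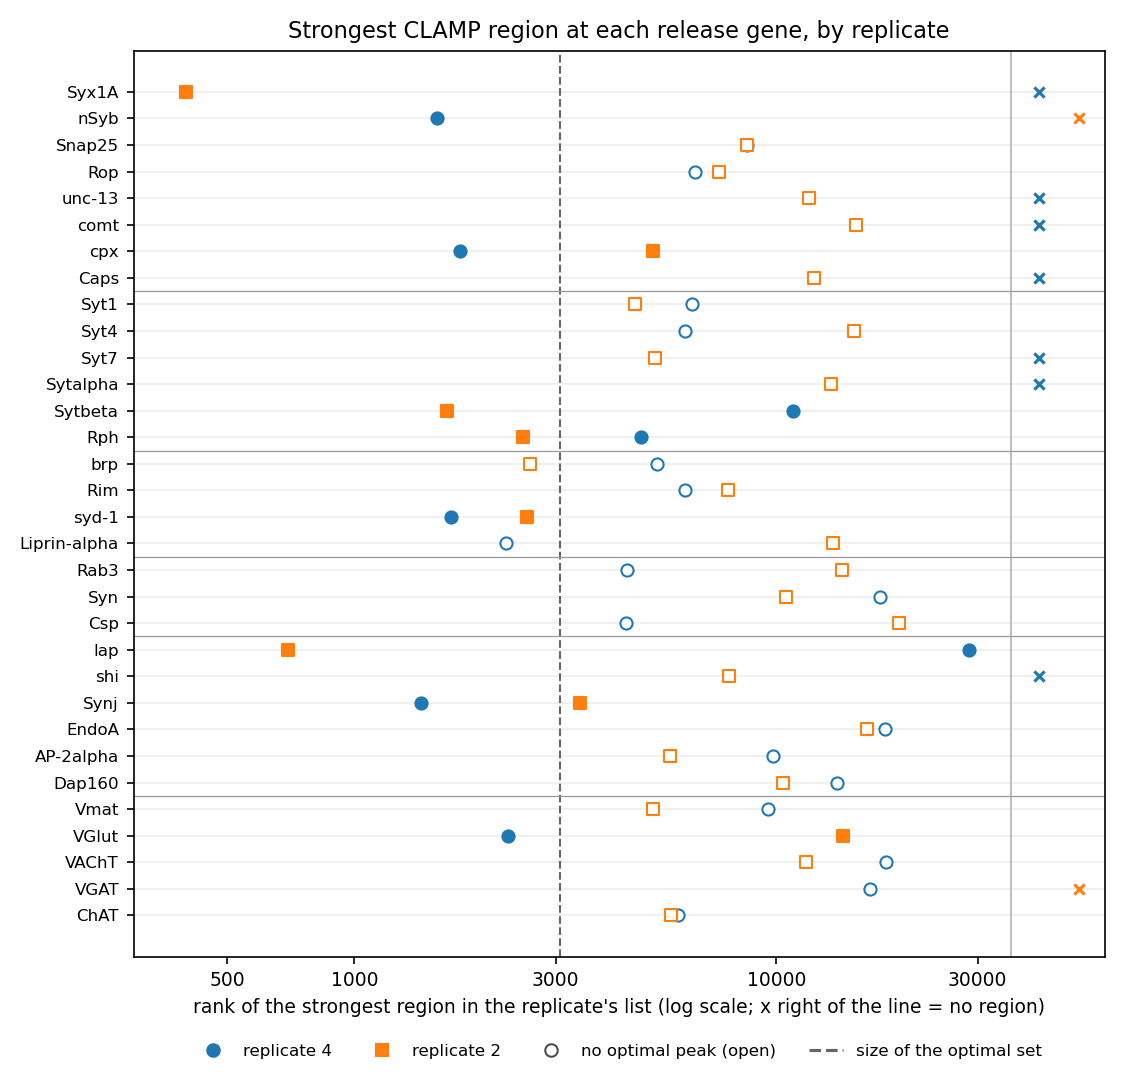
Rank (log scale) of the strongest region inside each release gene or within 1 kb of its TSSs, in the list of replicate 4 (circles) and of replicate 2 (squares); filled symbols are genes with an optimal peak, open symbols genes without, crosses genes with no region, and the dashed line marks rank 3077. The horizontal lines separate the roles. For Syx1A, nSyb, lap and Sytbeta the replicates lie far apart, and for syd-1 both lie left of the dashed line.

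Most release genes among the strongest regions of 1 replicate were not among those of the other. Among the 3077 strongest regions of replicate 4, 6 of the 32 genes had one (18.8%, exact binomial 95% interval 7.21 to 36.4%). Of other protein-coding genes 15.1% had one, and the length-weighted share was 29.5%. That share is the mean over 4 length classes of other genes, weighted by the number of release genes in each class. In replicate 2 the count was also 6 of 32, against 13.2% of other genes and a length-weighted share of 31.1%. The release genes were thus above the plain share and below the length-weighted one in both replicates, and the interval contains all 4 shares. These were 11 genes in all, with syd-1 in both, nSyb, cpx, Liprin-alpha, Synj and VGlut in replicate 4 only, and Syx1A, Sytbeta, Rph, brp and lap in replicate 2 only. The 1 of 11 was 9.09% (0.23 to 41.3%), against 45.7% of the 2694 other genes with such a region in either replicate. Of the 10 optimal peaks at release genes 6 were found in both whole lists with summits within 200 bp, 3 were missing from replicate 4 (Syx1A, Sytbeta and lap) and 1 from replicate 2 (nSyb). Of the other optimal peaks 79.9% were found in both lists. Counting only the 3077 strongest regions of each replicate, 1 of the 10 peaks was found in both (95% interval 0.253 to 44.5%), against 59.2% of the other optimal peaks. The other peaks and genes in these comparisons were not matched by signal. The median signal was 165 for the release-gene peaks and 274 for the other optimal peaks. The part of signal strength in these differences was not tested. Peaks of 1 gene or neighbouring genes are not independent, and no test was made.

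GC content is given beside the differences between replicates. In the 201 bp around the summit, the 3 peaks missing from replicate 4 had 51.7% at Syx1A, 45.3% at Sytbeta and 46.3% at lap, and the peak missing from replicate 2 had 56.7% at nSyb. The 2 peaks that ranked lowest in replicate 2, among those found there, had 60.7% at cpx and 58.7% at VGlut. The peaks with ranks nearer each other in both replicates had 45.3% at Rph, 46.8% and 52.2% at syd-1 and 49.3% at Synj, which overlaps the range of the peaks missing from replicate 4. The other optimal peaks had a median of 51.2%. Among the 23 genes without an optimal peak, the strongest region lay in a coding exon for 11 of the 17 genes with a region in replicate 4 and for 5 of 22 in replicate 2, with a median GC content of 60.7% and 42.3%. The part of base composition in these differences was not tested.

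Release genes carried a peak more often than protein-coding genes as a whole. Set against other genes of similar length, the share was close in the optimal set and lower among the strongest peaks and in each replicate alone. The 9 of 32 made up 28.1% (exact binomial 95% interval 13.7 to 46.7%), against 13.3% of the 13913 other protein-coding genes. Within 1 kb of a TSS alone it was 8 of 32 (25.0%, 11.5 to 43.4%), against 10.2%. From the 3077 strongest regions of replicate 4 alone it was 5 of 32 (15.6%, 5.28 to 32.8%), against 11.4% of other genes, and from those of replicate 2 alone 4 of 32 (12.5%, 3.51 to 29.0%), against 10.4%. The median length was 12.8 kb for release genes and 2.16 kb for the others. The length-weighted share was 29.9%, which corresponds to 9.57 genes of 32; for summits within 1 kb of a TSS it was 21.1%, or 6.75 genes. The intervals cover counting error only and contain both weighted shares. Among the 1538 strongest optimal peaks 2 of 32 genes had one (6.25%, 0.766 to 20.8%), against a length-weighted share of 20.1%, and in each replicate alone the 18.8% given above stood against 29.5% in replicate 4 and 31.1% in replicate 2; each of these intervals contains its weighted share.

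**Figure D3:**
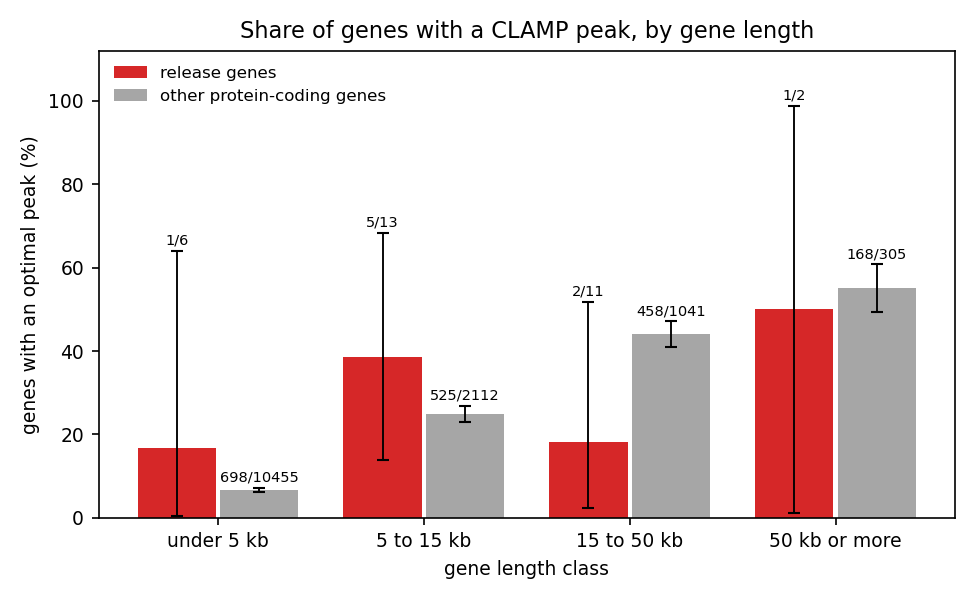
Percentage of genes with an optimal summit inside the gene or within 1 kb of a TSS, in 4 classes of gene length, for release genes (red) and other protein-coding genes (grey); the bars start at 0, the error bars are exact binomial 95% intervals and the fractions give the counts. In the class of 15 to 50 kb 2 of 11 release genes had a peak, against 44.0% of the others.

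By length class the counts went both ways. Below 5 kb 1 of 6 release genes had a peak (Syx1A), against 6.68% of the others. From 5 to 15 kb it was 5 of 13, or nSyb, Rph, lap, Synj and VGlut, against 24.9%. From 15 to 50 kb it was 2 of 11, or cpx and syd-1, a share of 18.2% (2.28 to 51.8%) against 44.0%. Of the 2 genes of 50 kb or more Sytbeta had one, against 55.1%. The interval of each class contains the share of the other genes.

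By chromosome, 1 of the 3 X-linked genes had a peak (Rph, but not comt or shi), against 20.3% of other X-linked genes. None of the 3 genes on chromosome 4 had one (unc-13, Caps and Syt7), against 3.90% of the others there. Chromosome 4 had 3 regions in the whole list of replicate 4, 326 in that of replicate 2 and 6 optimal peaks. The regions at unc-13, Caps and Syt7 were accordingly all from replicate 2, with best ranks of 11965, 12291 and 5162.

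Of the 10 release-gene peaks 4 held a GA run of 8 bp or more within 100 bp of the summit, at Syx1A (8 bp), nSyb (17 bp), lap (10 bp) and Synj (9 bp), against 34.4% of the other optimal peaks. Among the 3077 strongest regions of replicate 4 alone it was 2 of 6, against 28.1% of the other regions, and among those of replicate 2 alone 4 of 7, against 35.6%. The start sites themselves rarely had one: 1 of 65 TSSs of release genes had such a run within 100 bp, against 2.80% of the 19542 TSSs of other protein-coding genes. TSSs were counted per gene, so the start that VAChT and ChAT share entered the 65 once for each. A run is a description of the sequence, and its absence from a window says nothing about binding.

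**Figure D4:**
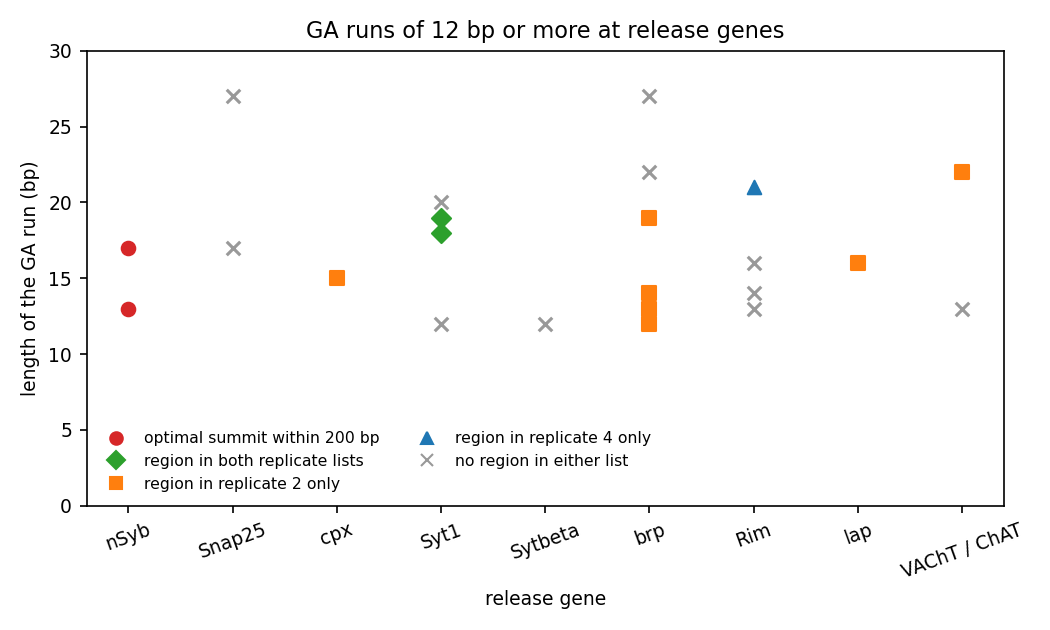
Length in bp of each of the 23 GA runs of 12 bp or more inside release genes or within 1 kb of their TSSs, by gene; the symbol shows whether an optimal summit lay within 200 bp or, failing that, a region of either replicate's whole list. The 2 runs with an optimal summit are both at nSyb, and the 27 bp runs of Snap25 and brp had no region in either list. VAChT and ChAT share their 2 runs.

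Long GA runs at release genes were mostly without an optimal peak. There were 23 runs of 12 bp or more, in 10 of the genes, over 799 kb of release-gene sequence, against 1904 runs over 95.2 Mb of other genes. An optimal summit lay within 200 bp of 2 of them (8.70%, exact binomial 95% interval 1.07 to 28.0%), against 26.9% of the runs in other genes; the 2 runs are neighbours under the single nSyb peak, and runs of 1 gene are not independent. None of the 6 runs of 20 bp or more had one, against 35.3% of the 408 runs of that length in other genes. The 2 runs of Snap25 lay 614308 and 513533 bp from the nearest optimal summit, and all other runs at most 57873 bp. All 23 runs lay on 2L, 2R, 3L and 3R, and the shares of other genes were not matched by chromosome. On X 20.3% of other genes had an optimal peak, against 10.7 to 13.1% on those 4 arms. brp had 6 runs of 12 to 27 bp, Syt1 4 of 12 to 20 bp and Rim 4 of 13 to 21 bp. The whole list of replicate 2, background included, had a region within 200 bp of 9 of the 23 runs, against 51.8% of the runs in other genes. For replicate 4 it was 5 of 23, against 34.4%. Both lists had a region at 2 of the runs, and neither had one at 11, against 41.6% with neither in other genes. Optimal peaks were also sparser, at 12.5 per Mb of release-gene sequence against 27.0 per Mb in other genes. Without Snap25, which alone makes up 225 kb of the 799 kb, the density was 17.4 per Mb. These densities were not matched by gene length, and release genes were longer (median 12.8 kb against 2.16 kb).

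A second list held 48 other genes of the synaptic vesicle cycle, and 12 of them had an optimal peak (25.0%, exact binomial 95% interval 13.6 to 39.6%), against a length-weighted share of 26.7% among other protein-coding genes. Active zone genes made up 7 of the 12, from 10 on the list, where the length-weighted share was 43.5%; among the 4 scaffold genes described above the count was 1, against a length-weighted share of 39.2%, or 1.57 genes. These shares were not matched by chromosome, and of the active zone genes with a peak dlg1 and hiw lie on X. The 4 scaffold genes described above are all autosomal. The other 38 genes of the list had a peak in 5 cases, against 22.2%. By signal the first was Rab5, a GTPase of early endosomes, with 2034 at rank 151 in its 5' UTR, and ranks of 147 in replicate 4 and 158 in replicate 2. No release gene had a peak of that strength. Then followed the scaffold gene Rbp (465), the ubiquitin ligase gene hiw (433), the scaffold genes CASK (394) and dlg1 (318), the GABA-synthesis gene Gad1 (311), the SNARE-binding Tomosyn (311) and the active zone gene Fife (274). The summit at Gad1 lay inside a neighbouring gene, CG14989, and 155 bp from its TSS.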

How the data were processed

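The files used were 4 deposited peak lists in dm6: an optimal set of 3077 peaks, a list pooled from both replicates, and a list for each replicate of 30000 regions. Their signal values were taken as deposited. Per the deposited text files, the replicate and pooled lists came from the alignments and 1 further shared file. By the same text, the optimal set was thresholded on irreproducible discovery rate (IDR) using all 3. At the 9 genes with an optimal peak, the strongest peak had the same signal and rank in the pooled and the optimal list. The highest pooled rank of a gene without one was 3444, so a place in the set went with pooled rank. Aligner, caller, thresholds and depth scaling were not given in the sources used here. Read depth is unknown, so intervals cover counting error only. The lists in dm3 were not used.

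Genes and TSSs came from the BDGP 6.54 annotation (Ensembl release 115), and sequences from the RefSeq Release 6 genome. Caps and syd-1 were matched through RefSeq synonyms (the gene caps, capricious, is another gene). Ranks are by signal within a list, and summits within 200 bp were matched. Shares have exact Clopper-Pearson intervals. The length-weighted share is the mean of the other genes' shares in 4 length classes (bounds at 5, 15 and 50 kb), weighted by how many of the 32 genes fall in each class. The genes and lists were chosen with earlier results of these data known. Named are all 32 genes and, of the second list, the 8 of highest signal; 1 of its 49 names was not matched. By the rule, genes without an optimal peak have the regions of the 5 highest ranks given; the regions of the rest were added after their values were seen. No paired analysis applies, since there is 1 group. The code was tested on simulated data. Python 3.11.15, numpy 2.4.6, pandas 2.3.3, scipy 1.17.1 and matplotlib 3.10.9 were used.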

Additional observations from a re-analysis of the deposited data

How the results depend on the processing

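Of 33 alternative values 20 were counted as unchanged: a count within 1.5 times the main count, a length-weighted share within its counting interval over all other genes, a median signal within the range of the peaks less its ends, or a density within its counting interval. With the 1538 strongest optimal peaks, 2 of 32 genes had a peak under either placement, the length-weighted share of other genes was 20.1%, and 2 of 2 peaks held a GA run. Using each replicate alone gave 4 to 5 genes within 1 kb of a TSS, 6 genes inside or within 1 kb, a weighted share of 29.5 to 31.1% and 2 to 4 peaks with a GA run. The weighted share was 28.7% with 500 bp and 31.8% with 2 kb around TSSs, and 28.5% without the genes of chromosome 4, an alternative chosen after seeing the data, as was leaving out Snap25. When only the 3077 strongest regions of each replicate counted, 1 of 10 peaks was found in both, against 59.2% of the other optimal peaks, which were not matched by signal. With a minimum run of 12 bp, 1 of 10 peaks had one. The cause of these shifts was not tested, and fewer peaks or a longer run lower a count by construction. No paired analysis was possible because there is 1 group. With 32 genes and 10 peaks, the intervals are wide.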
